A study of Mus musculus with 18 samples.

Results

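Col1a1, Col1a2, Col3a1, Col5a1 and Col5a2 encode chains of the fibrillar collagens I, III and V. They were read by 11 of the 41174 non-control probes of the array, each chosen because the array's gene name was one of these 5 of the 24969 gene names measured. The probes were kept apart because those of Col1a1 disagreed. Col1a1 and Col3a1 had 3 probes each, Col1a2 and Col5a1 had 2 each, and Col5a2 had 1. All 11 passed the filter on dim probes, as did 36965 probes in all.

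Fibrillar collagens are made as procollagen chains that fold into triple helices in the endoplasmic reticulum, are trimmed outside the cell and assemble into the cross-linked fibrils of connective tissue. Collagen I is built from the chains of Col1a1 and Col1a2, collagen III from Col3a1 alone, and collagen V, which helps to start fibrils and limits their width, from chains that include those of Col5a1 and Col5a2. Fibroblasts make all 3 in large amounts, and pluripotent cells in culture are often grown on a layer of fibroblast feeders.

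The series holds 18 Agilent mouse arrays with 2 colours each, Cy5 and Cy3, and so 36 channels of RNA. Mouse induced pluripotent stem cells (iPSC) labelled Dnmt3ab deficient, clones 8, A6 and B2, filled 6 channels. Each clone was in Cy5 on 1 array, with mouse embryonic fibroblasts (MEF) in Cy3, and in Cy3 on another, with V6.5 embryonic stem cells (ESC) in Cy5. The same 3 clones, labelled as having some signs of differentiation, filled 12 channels, each on an array with 1 of the control iPSC lines 3, 4, 5 and 6, which filled the other 12. MEF and V6.5 ESC filled 3 channels each. Dnmt3a and Dnmt3b are the enzymes that set new DNA methylation. The labels mark the differentiating clones, MEF and V6.5 ESC as not used in the published statistics, so the study's own comparison was of deficient with control iPSC. They also state that iPSC lines were grown on irradiated MEF and passaged on gelatin, without fresh feeders, before RNA was taken. How the control lines were made, which part of each Dnmt3 gene was deleted and which animals the lines came from are not given in the sources used here, and each deficient line is 1 clone. The labels do not say whether the arrays of a line carried separate cultures, so the line, not the array, was counted as the replicate.

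The 6 arrays with deficient iPSC, MEF and V6.5 ESC were scanned on 1 day, and the 12 with differentiating and control iPSC on another. The share of probes well above background ranged over 69.7% to 78.9% in the earlier set of channels and 75.6% to 92.6% in the later set. Pou5f1, which encodes the pluripotency factor Oct4, had line values (log2 signal, with deficient and V6.5 ESC values from arrays without MEF, and MEF values from its own arrays) of 14.92 to 15.01 in deficient, 14.46 to 14.55 in differentiating and 14.46 to 14.79 in control iPSC, 15.24 in V6.5 ESC and 10.73 in MEF. Thy1, a surface protein of fibroblasts, read 11.03 to 11.20 in deficient, 12.47 to 13.17 in differentiating and 13.11 to 14.01 in control iPSC, 10.91 in V6.5 ESC and 16.21 in MEF. The brightest Dnmt3a probe read 8.80 to 10.04 in deficient, 9.12 to 9.58 in differentiating and 10.53 to 11.34 in control iPSC. Dnmt3b read 12.05 to 13.57 in deficient, 13.17 to 13.34 in differentiating and 12.41 to 13.99 in control iPSC, so its groups overlapped. Whether these probes lie in a deleted part is not known here, and they do not check the labels.

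The probe positions given in the files are on mouse build mm7, and exon or UTR positions were not analysed here. Probe 1 of Col1a1 lies on chromosome 11 at 95060800 to 95060859 and was printed as 10 spots. Probe 2 lies at 95059777 to 95059836 and probe 3 at 95047002 to 95047061, 1023 and 13798 bases upstream of probe 1. The probes of Col1a2 lie on chromosome 6 at 4493505 to 4493564 and 4466659 to 4466718. Those of Col3a1 lie on chromosome 1 at 45585395 to 45585454, 45561053 to 45561112 and 45558167 to 45558226. Col5a1 has 1 probe on chromosome 2 at 28044683 to 28044742 and another whose ends lie 2424 bases apart, at 27994034 to 27996457. The Col5a2 probe lies on chromosome 1, on the minus strand, at 45613427 to 45613486.

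The bright probes of the collagen genes gave the control lines, and likewise the differentiating clones, much the same order (below). Whether promoter sequence bears on that order was not tested. No promoter entry was used for Col1a1 and Col5a2. Promoter sequence is shown for Col1a2, Col3a1 and Col5a1. Each is the 250 bases before the start site used for that gene in the RefSeq promoter table (build GRCm38.p6, plus strand), 5′ to 3′. For Col5a1 the gene's own start in RefSeq, 27886381, lies inside this window, so its last bases are within the gene. Capitals mark the letters searched for on either strand: the CCAAT box, the TATA-box motif TATAAA, and the GC-box motif written GGGCGG.
Col1a2, chr6:4505368-4505617: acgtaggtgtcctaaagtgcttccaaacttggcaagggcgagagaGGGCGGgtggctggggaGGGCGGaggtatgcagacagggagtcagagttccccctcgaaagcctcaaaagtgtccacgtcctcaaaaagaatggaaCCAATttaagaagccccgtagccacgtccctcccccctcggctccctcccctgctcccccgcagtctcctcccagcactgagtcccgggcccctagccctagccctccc
Col3a1, chr1:45311288-45311537: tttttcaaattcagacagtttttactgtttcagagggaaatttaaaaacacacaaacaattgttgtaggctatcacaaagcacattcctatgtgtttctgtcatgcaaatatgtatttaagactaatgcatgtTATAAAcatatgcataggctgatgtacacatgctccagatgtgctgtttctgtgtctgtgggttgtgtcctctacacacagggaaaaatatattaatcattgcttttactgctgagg
Col5a1, chr2:27886175-27886424: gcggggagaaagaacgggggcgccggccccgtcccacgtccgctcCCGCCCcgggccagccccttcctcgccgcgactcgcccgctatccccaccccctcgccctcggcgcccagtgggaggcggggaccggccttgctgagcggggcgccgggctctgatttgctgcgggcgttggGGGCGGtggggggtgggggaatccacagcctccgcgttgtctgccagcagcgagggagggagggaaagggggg
Counted back from that start site, Col1a2 held CCAAT at 109 bases and GGGCGG at 205 and 188 bases. Col3a1 held TATAAA at 117 bases, and Col5a1 held GGGCGG at 73 bases and its reverse complement at 205 bases. Of 32851 RefSeq promoters cut to the same length, 33.8% held the CCAAT box, 12.4% the TATA-box motif and 32.7% the GC-box motif on either strand. The share of G and C was 62% in Col1a2, 35.2% in Col3a1 and 76.4% in Col5a1, against a median of 52.4% over all promoters. The 3 windows shared no single motif of those searched, and a match is only a description of the letters.

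Before any comparison, the deficient clones read differently beside MEF and beside V6.5 ESC. For Col1a1 probe 2, net spot signals (mean signal minus local background, arbitrary units) were read for clones 8, A6 and B2. They were 8607, 9438 and 10113 beside MEF, in Cy5, against 417.8, 342.8 and 349.8 beside V6.5 ESC, in Cy3. In normalized log2 signal this was 12.42 ± 0.11 beside MEF against 9.26 ± 0.06 beside V6.5 ESC (SD, n = 3 clones), a gap of 3.16 with a range of 3.05 to 3.30. All 3 clones were higher beside MEF, and the ranges did not come near each other.

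Col1a2 probe 1 averaged 13.82 beside MEF and 12.46 beside V6.5 ESC, a gap of 1.36. Col3a1 probe 1 averaged 11.81 beside MEF and 10.40 beside V6.5 ESC, a gap of 1.41. Smaller gaps were found for Col5a2 (1.05) and Col5a1 probe 1 (0.60). In normalized signal Col1a1 probe 1 ran the other way, at 11.92 beside MEF against 12.65 beside V6.5 ESC, a gap of -0.74. The 5 dim probes had gaps between -0.16 and 0.17. Net spot signals of Col1a1 probe 1 were 5812, 6920 and 6700 beside MEF. Beside V6.5 ESC they were 5139, 4344 and 4568, so the direction of this probe depended on normalization. As the plot of clone signals by the RNA on the same array shows, the Col1a1 probes disagreed in these gaps within the deficient clones. MEF on its arrays averaged 18.41 in probe 1 and 16.32 in probe 2, closer together than in the control lines given next. Probe 1 minus probe 2 was -0.47 to -0.34 in the deficient clones on MEF arrays and 3.14 to 3.39 in the same clones on V6.5 ESC arrays, and it was 3.47 to 3.68 in differentiating and 3.45 to 3.89 in control lines.

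**Figure D1:**
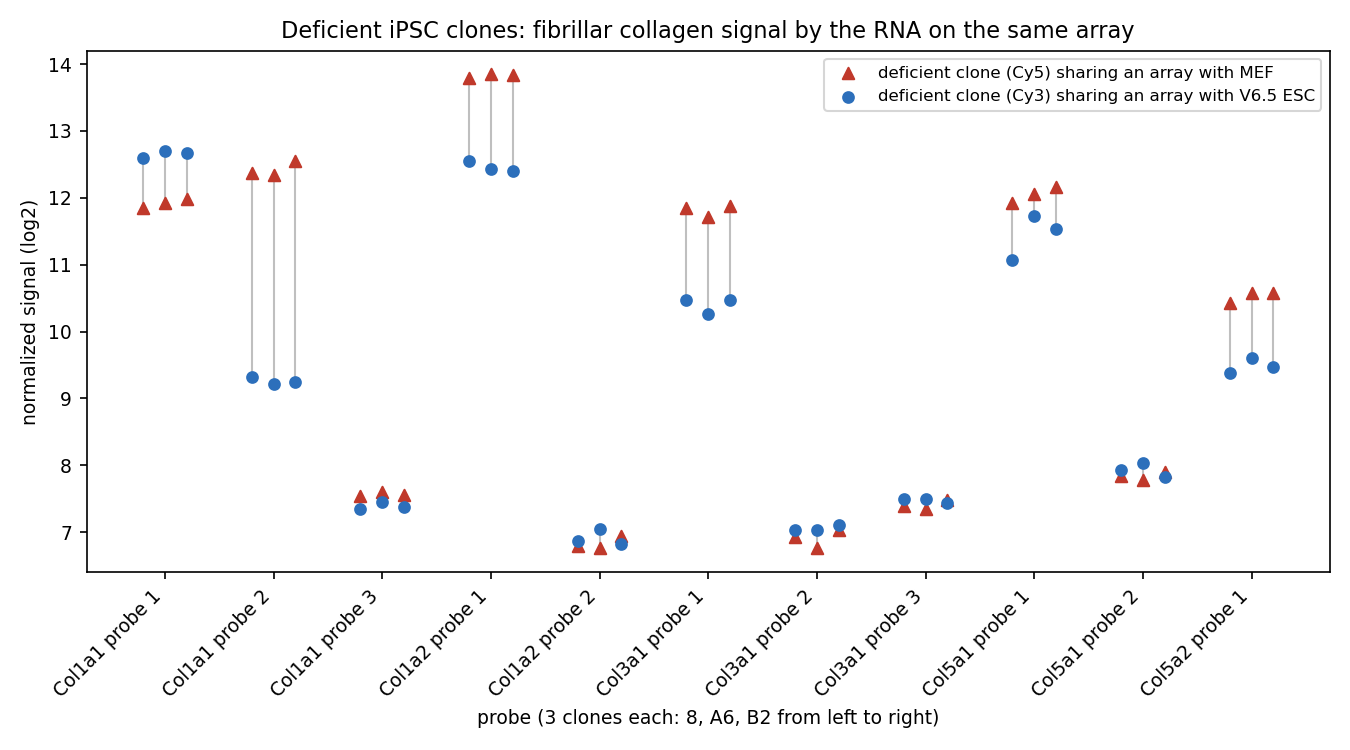
Normalized log2 signal of the 11 fibrillar collagen probes in the 3 deficient clones, in Cy5 on arrays shared with MEF (triangles) and in Cy3 on arrays shared with V6.5 ESC (circles); each pair is 1 clone. Col1a1 probe 2 is higher by 3.05 to 3.30 beside MEF, and Col1a1 probe 1 is lower there.

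Of the 11 collagen probes, 4 were at least 1 log2 unit higher beside MEF, against 87 of 36832 probes (0.236%), and none was that much lower, against 5 of all probes (0.0136%). Over all probes the median gap was -0.05. Among the 240 probes at least 4 log2 units brighter in MEF than in V6.5 ESC, the median gap was 0.61 and 28.3% were at least 1 higher, while among the 28863 probes within 1 unit the median was -0.06. Of 25 fibroblast markers 5 had a gap of at least 1, with a median of 0.17, and of 8 contractile markers 3, with a median of 0.66. Large gaps among them were Fbln5 at 3.56, Postn at 2.54 and Thbs2 at 2.02, which encode matrix proteins, and Acta2, the smooth muscle actin, at 1.71. Other markers brighter in MEF than in V6.5 ESC ran the other way: Vim, a filament protein, had -0.46, Tagln -0.42, Lum -0.39 and Sparc -0.12. The 10 pluripotency markers had a median gap of -0.02 and none over 0.38. Partner RNA, dye and replicate changed together and cannot be told apart. With the dye difference of the other arrays taken off, the gaps of the 6 bright probes were 3.26 for Col1a1 probe 2, 1.52 for Col3a1, 1.51 for Col1a2, 1.16 for Col5a2, 0.80 for Col5a1 and -0.42 for Col1a1 probe 1. For this reason the comparisons of deficient clones with control lines and with their differentiating state are given both with all arrays and with the V6.5 ESC arrays alone, an alternative chosen after seeing the data.

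**Figure D2:**
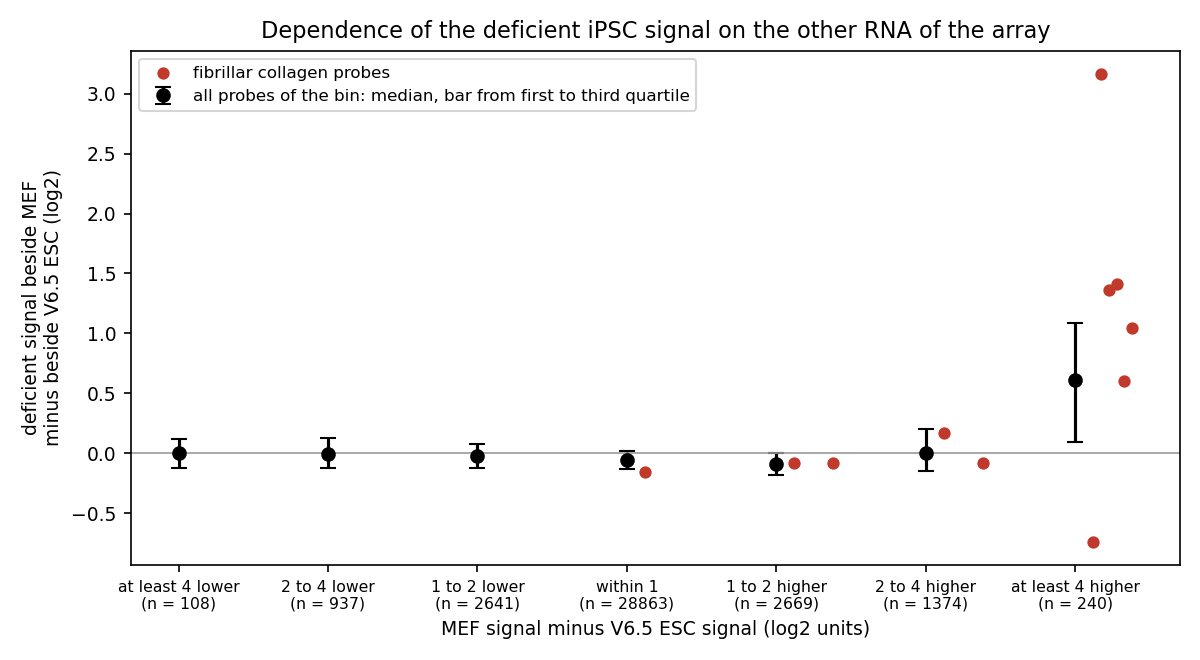
Gap in the deficient clones (log2 signal beside MEF minus beside V6.5 ESC, y axis) by how much brighter a probe was in MEF than in V6.5 ESC (x axis). Black points are medians of all probes in the bin with quartile bars and red points are collagen probes; the median is 0.61 in the highest bin and -0.06 within 1 unit.

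Line values below join all arrays of a line with a dye term. In this description deficient and V6.5 ESC values leave out the MEF arrays, and MEF values leave out the V6.5 ESC arrays. The 6 bright probes, those with a mean log2 signal over 9, were probe 1 of each gene and Col1a1 probe 2.

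Col1a1 probe 1, for the α1 chain of collagen I, had line values of 12.37, 12.59 and 12.52 in deficient clones 8, A6 and B2. It had 13.24, 12.79 and 12.71 in the same clones when differentiating, 14.56, 14.68, 14.16 and 13.52 in control lines 3 to 6, 12.49 in V6.5 ESC and 18.25 in MEF. The control lines were all above both kinds of deficient clone, and differentiating clones were all above undifferentiated ones. Col1a1 probe 2 gave 9.20 to 9.23 in deficient, 9.24 to 9.56 in differentiating and 10.07 to 10.90 in control iPSC, with 9.26 in V6.5 ESC and 16.27 in MEF.

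Col1a2 probe 1, for the α2 chain of collagen I, read 12.32, 12.48 and 12.36 in deficient and 13.10, 12.66 and 12.45 in differentiating clones. Control lines 3 to 6 read 14.10, 14.27, 13.92 and 13.16, V6.5 ESC 12.35 and MEF 18.83. The deficient and differentiating ranges overlapped, and control line 6 was just above differentiating clone 8.

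Col3a1 probe 1, for the only chain of collagen III, read 10.43, 10.24 and 10.38 in deficient and 11.10, 10.52 and 10.37 in differentiating clones. Control lines read 12.47, 12.82, 12.32 and 11.71, V6.5 ESC 10.20 and MEF 17.12. Control lines stood clear of all 6 values of the deficient clones.

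Col5a1 probe 1, for the α1 chain of collagen V, read 11.04, 11.62 and 11.37 in deficient and 12.31, 12.15 and 11.84 in differentiating clones. Control lines read 13.16, 13.45, 13.03 and 12.72, V6.5 ESC 11.24 and MEF 17.24. Its 3 kinds of iPSC did not overlap.

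Col5a2, for the α2 chain of collagen V, read 9.48, 9.38 and 9.41 in deficient and 9.31, 9.05 and 8.88 in differentiating clones. Control lines read 10.42, 10.78, 10.49 and 9.58, V6.5 ESC 9.23 and MEF 15.93. Differentiating clones were here the lowest iPSC, and control line 6 was close to deficient clone 8.

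In all 6 bright probes, control line 4 was the highest and line 6 the lowest control, and differentiating clones ran 8, A6, B2 from high to low. Bright probes spread over 0.03 to 0.57 log2 units among deficient clones, 0.32 to 0.73 among differentiating clones and 0.73 to 1.20 among control lines. With all arrays the spread among deficient clones was 0.07 to 0.32. The 10 spots of Col1a1 probe 1 had a median SD of 0.15 within a channel, and up to 0.573. Among the 5 dim probes, Col1a2 probe 2 passed the scanner's test of signal over background in 0 of 6 deficient, 3 of 12 differentiating and 8 of 12 control channels, in 0 of 3 V6.5 ESC channels and in all 3 of MEF. Col3a1 probe 2 passed in 0 of 6 deficient, 2 of 12 differentiating and 7 of 12 control channels and in none of V6.5 ESC or MEF. The other 3 dim probes passed in every channel.

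**Figure D3:**
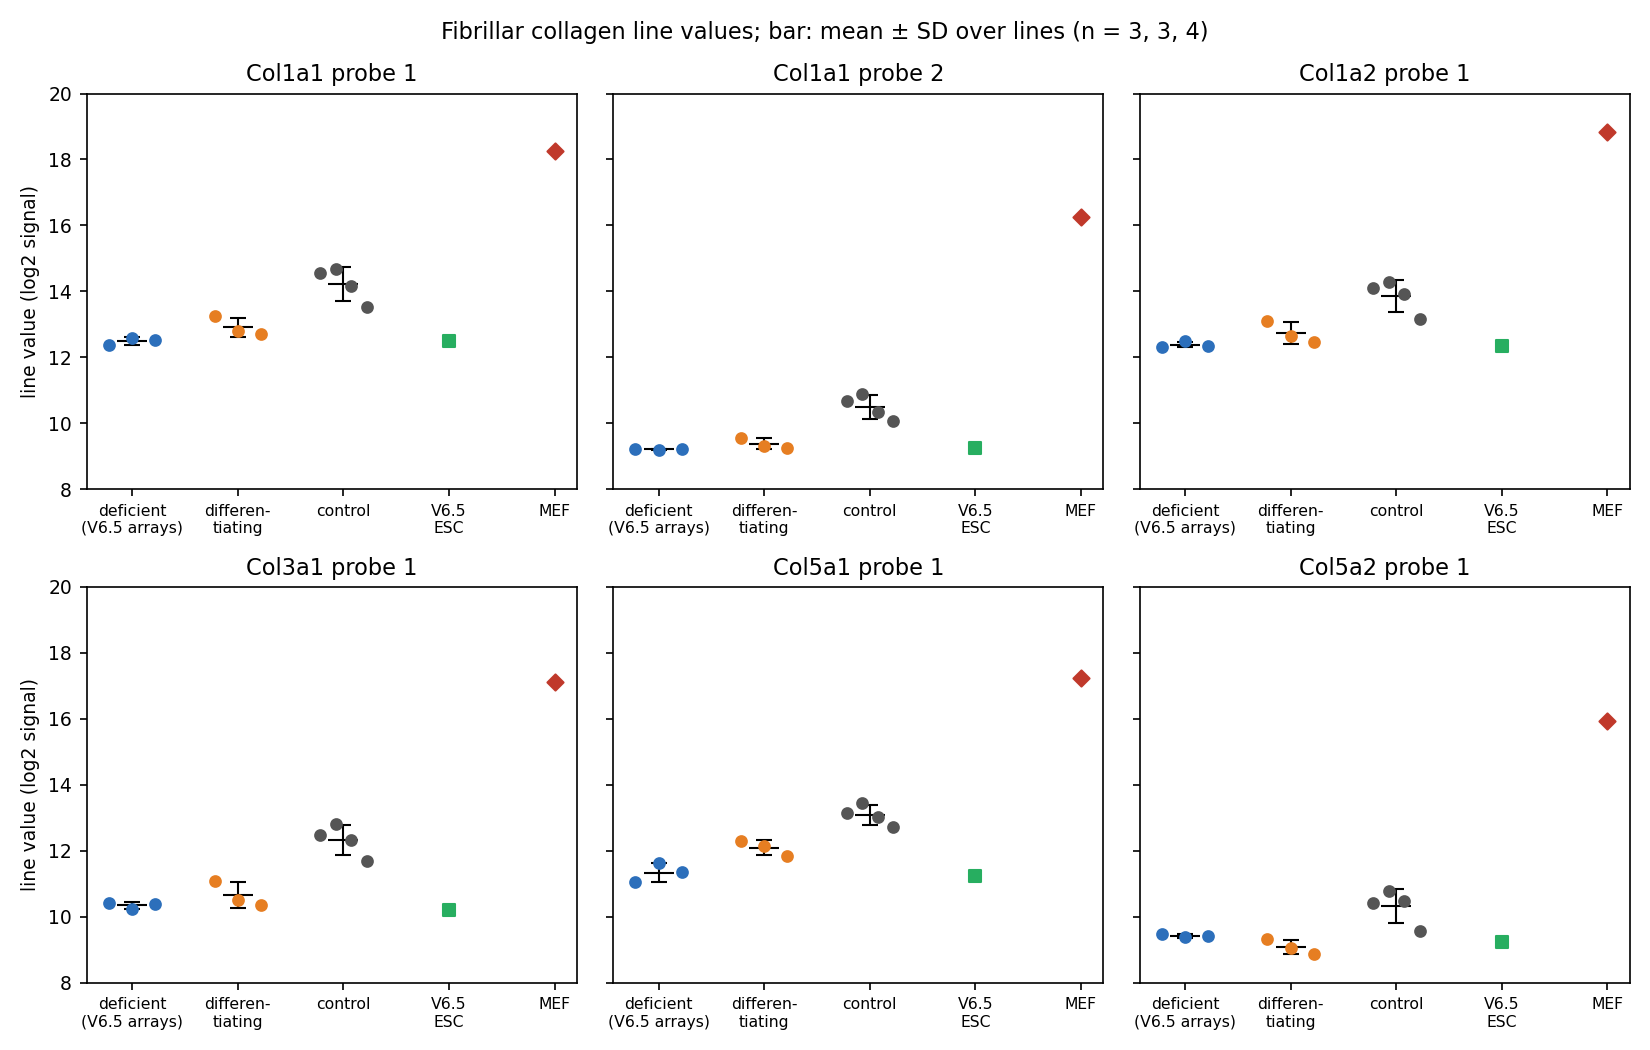
Line values (log2 signal, y axis) of the 6 bright probes in deficient iPSC (V6.5 ESC arrays), differentiating clones, control lines, V6.5 ESC and MEF; points are lines and bars the mean ± SD of 3, 3 and 4 lines. Control lines lie above deficient and V6.5 ESC values and below MEF in each panel.

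The study's main comparison was of deficient with control iPSC. Collagen RNA was lower in the deficient clones by the probe 1 values of 3 genes. Col1a1 probe 1 averaged 12.28 in deficient and 14.24 in control lines, a difference of -1.95 ± 0.27 (log2 ± SE, 3 against 4 lines; limma adjusted p = 0.00167). Col5a1 probe 1 averaged 11.75 in deficient and 13.07 in control lines, a difference of -1.33 ± 0.17 (limma adjusted p = 0.00123). Col3a1 probe 1 averaged 11.11 in deficient and 12.30 in control lines, a difference of -1.19 ± 0.24 (limma adjusted p = 0.00724). In bulk RNA, fewer cells of a type and less RNA per cell cannot be told apart.

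In all, 5 of 11 probes were called lower (adjusted p under 0.05) and 0 higher, beside 45.6% of all probes called and 27.6% called lower. The other 2 calls were dim probes, Col3a1 probe 3 at -0.42 and Col1a1 probe 3 at -0.34. Col1a2 probe 1 differed by -0.69 (limma adjusted p = 0.0575), Col5a2 by -0.29 (limma adjusted p = 0.399) and Col1a1 probe 2 by 0.41 (limma adjusted p = 0.109). Deficient and control lines shared no slide or scan day, so group and day cannot be told apart. On simulated data this comparison, unlike that of differentiating with control lines, called unchanged probes more often than its threshold allows, so its adjusted p-values may be too small. The simulation held the same spread between lines for all probes and no effect of scan day or partner RNA. It therefore does not show that the comparison of differentiating with control lines is free of this.

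With deficient values from the V6.5 ESC arrays alone, 8 of 11 probes were called lower and 0 higher, beside 42.4% of all probes called and 23.6% called lower. All 6 bright probes were then among them. Col3a1 probe 1 averaged 10.35 in deficient and 12.33 in control lines, a difference of -1.98 ± 0.24 (limma adjusted p = 0.00139). Col5a1 probe 1 fell by 1.75 (limma adjusted p = 0.00109), Col1a1 probe 1 fell by 1.74 (limma adjusted p = 0.0032) and Col1a2 probe 1 fell by 1.48 (limma adjusted p = 0.0046). Col1a1 probe 2 turned round, to 9.21 in deficient against 10.50 in control lines, a difference of -1.29 ± 0.19 (limma adjusted p = 0.0025). Col5a2 fell by 0.89 (limma adjusted p = 0.0338). On the MEF arrays alone, 4 probes were called lower and 1 higher, beside 27.8% of all probes called lower and 16% higher. The higher one was Col1a1 probe 2 (1.97), and Col1a1 probe 1 (-2.15) and Col5a1 probe 1 (-0.94) were among the lower. The call of Col3a1 probe 1 was lost there, at -0.46 (limma adjusted p = 0.156), and Col1a2 probe 1 differed by 0.03 (limma adjusted p = 0.926) and Col5a2 by 0.27 (limma adjusted p = 0.441).

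Differentiating clones and control lines shared arrays and a scan day. Collagen RNA was lower in the differentiating clones: all 6 bright probes were lower on 12 of 12 arrays, and the 2 groups of lines did not overlap. Such a separation downward was found for 10.2% of all probes. Col3a1 probe 1 averaged 10.69 in differentiating and 12.30 in control lines, a difference of -1.61 ± 0.29 (3 against 4 lines; limma adjusted p = 0.0364). Col1a1 probe 2 averaged 9.44 in differentiating and 10.44 in control lines, a difference of -0.997 ± 0.19 (limma adjusted p = 0.0431). Col5a1 probe 1 averaged 12.11 in differentiating and 13.07 in control lines, a difference of -0.96 ± 0.18 (limma adjusted p = 0.042).

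These were 3 of 11 probes called lower and 0 higher, beside 4.65% of all probes called, 2.13% higher and 2.52% lower. The other bright probes did not pass the test: Col1a1 probe 1 differed by -1.33 ± 0.30 (limma adjusted p = 0.0571), Col5a2 by -1.19 ± 0.28 (limma adjusted p = 0.0642) and Col1a2 probe 1 by -1.06 ± 0.28 (limma adjusted p = 0.0876). The 5 dim probes differed by -0.10 to 0.03. Without the MEF arrays, which changes the dye term (an alternative chosen after seeing the data), the same 3 probes were called lower, beside 4.87% of all probes called and 2.63% called lower. From array log ratios with a dye term, which count arrays and not lines, 7 probes were called lower, beside 31.9% of all probes called and 16.3% called lower.

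Each clone had a slide of its own with the 4 control lines. Within slides, Col3a1 probe 1 averaged -1.14 for clone 8, -1.78 for A6 and -1.92 for B2, before dye adjustment. With these 3 clone and slide differences as a replicate block, all 6 bright probes were called lower, beside 19.8% of all probes called and 11.3% called lower. That fit leaves out the spread between control lines. In it, Col1a1 probe 1 had an SE of 0.13 (limma adjusted p = 0.0155), Col5a2 of 0.10 (limma adjusted p = 0.0124) and Col1a2 probe 1 of 0.14 (limma adjusted p = 0.0234). The calls at 3 against 4 lines depended on single lines. Without clone A6, clone B2 or control line 3, 4 or 5, 0 of 11 probes were called (6 lower at an unadjusted p under 0.05 in limma each time). Of all probes, 14.7% (without clone A6) to 21.7% (without control line 5) passed that unadjusted threshold. Adjusted calls over all probes were 0% without clone A6 or B2, 0.00812% without control line 3, 0.0757% without line 4 and 5.46% without line 5. Without clone 8, 1 of 11 was called, beside 3.58% of all probes, and without control line 6, 6 of 11, beside 13.4%.

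**Figure D4:**
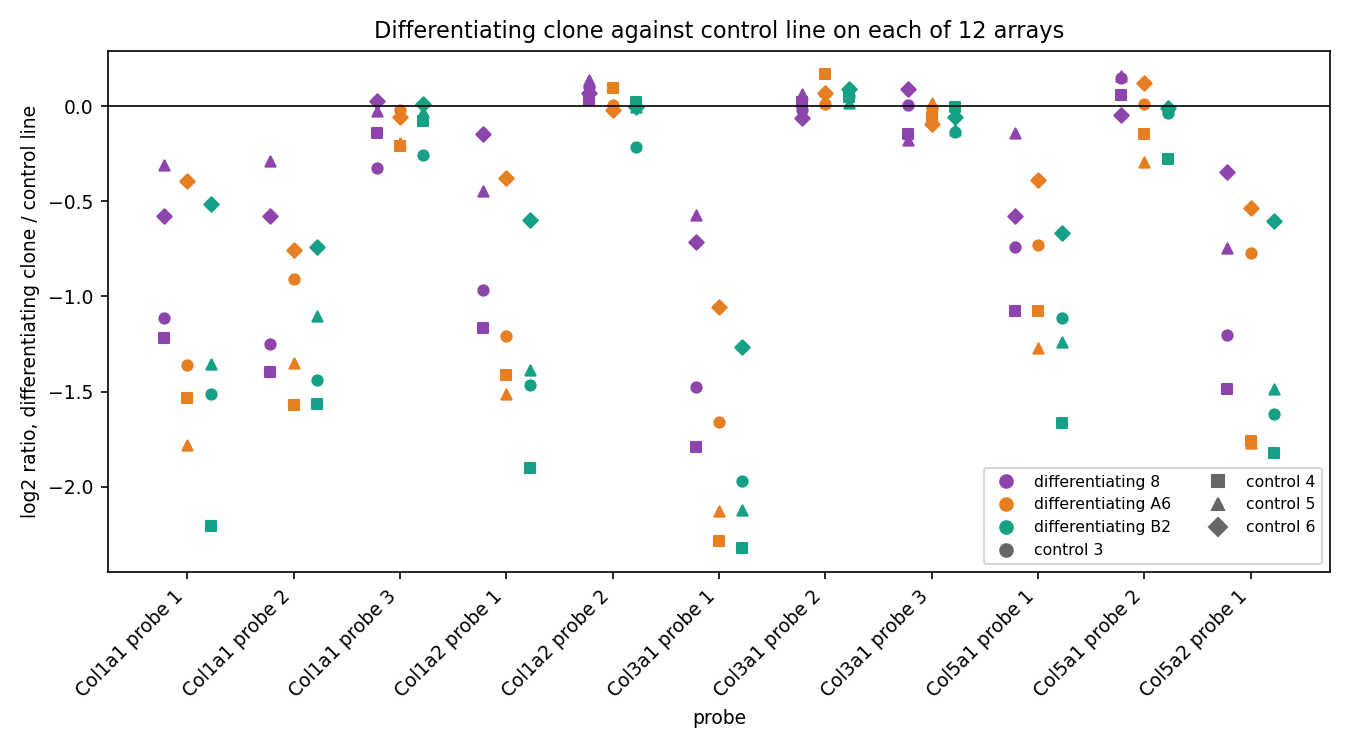
Log2 ratio of differentiating clone over control line on each of 12 arrays (y axis), for the 11 probes; colours are clones and shapes control lines, before dye adjustment. All points of the 6 bright probes lie below 0, and dim probes lie near 0.

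The same clones were then compared between states. With V6.5 ESC arrays alone, Col5a1 probe 1 averaged 12.10 in differentiating and 11.34 in undifferentiated clones, a difference of 0.75 ± 0.18 (3 clones as pairs; limma adjusted p = 0.0345). Col5a2 averaged 9.08 in differentiating and 9.42 in undifferentiated clones, a difference of -0.34 ± 0.08 (limma adjusted p = 0.0366). These bright probes of the collagen V chains moved in opposite directions on these arrays. The dim probes Col1a1 probe 3 and Col3a1 probe 3 each rose by 0.32 and Col5a1 probe 2 fell by 0.15, which made 3 probes higher and 2 lower, beside 45.6% of all probes called, 23.5% higher and 22% lower. Collagen I did not pass in its bright probes: Col1a1 probe 1 differed by 0.42 (limma adjusted p = 0.102), Col1a1 probe 2 by 0.16 (limma adjusted p = 0.146) and Col1a2 probe 1 by 0.35 (limma adjusted p = 0.135).

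With all arrays, 3 probes were called higher and 3 lower, beside 52.2% of all probes called, 29.5% higher and 22.7% lower. Col1a1 probe 1 then rose by 0.62 ± 0.14 (limma adjusted p = 0.0238), while Col1a1 probe 2 fell by 1.40 ± 0.09 (limma adjusted p = 0.00313) and Col5a2 fell by 0.90 ± 0.11 (limma adjusted p = 0.00561). Col5a1 probe 1 was not called with all arrays, at 0.37 (limma adjusted p = 0.0978). State and scan day cannot be told apart. Without clone A6, 1 of the 11 probes was called, while 41.5% of all probes had an unadjusted p under 0.05 in limma.

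Against MEF, 10 of the 11 probes were lower in deficient iPSC, beside 59.3% of all probes called and 31.2% called lower. The fit also called Col3a1 probe 2, but it was not well above background in deficient or MEF channels and is not counted. On the arrays that held both, with a dye term, the 3 clones and MEF differed by -6.25 ± 0.31 in Col1a1 probe 1 (limma adjusted p = 2.24e-11), -5.37 in Col5a2, -5.28 in Col3a1 probe 1, -5.10 in Col5a1 probe 1 and -4.99 in Col1a2 probe 1. Col1a1 probe 2 differed by -3.84, which is 14.3-fold higher in MEF. For Col1a2 probe 2, MEF read 2.23-fold above a level set for deficient iPSC. In each array that level was the higher of the probe's own signal and the lowest signal well above background. It is not a limit of detection, so the fold is not a lower bound. Col1a2 probe 2 was not well above background in any deficient channel. The labels do not say whether the 3 MEF channels held separate cultures.

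With deficient values from V6.5 ESC arrays and MEF values from its own arrays, MEF stood higher by 133-fold for Col1a1 probe 2, 109-fold for Col3a1, 90.8-fold for Col5a2, 87.1-fold for Col1a2, 59.4-fold for Col5a1 and 54.0-fold for Col1a1 probe 1. As a percent of the MEF signal of the same probe, deficient lines averaged 0.752% ± 0.009 for Col1a1 probe 2 to 1.85% ± 0.14 for Col1a1 probe 1 (SD, n = 3). Differentiating clones averaged 0.844% ± 0.10 for Col1a1 probe 2 to 2.87% ± 0.46 for Col5a1 (SD, n = 3). Control lines averaged 1.88% ± 0.47 for Col1a1 probe 2 to 6.46% ± 2.09 for Col1a1 probe 1 (SD, n = 4), and V6.5 ESC read 0.779% to 1.85%. If these signals are read as a gauge of fibroblast RNA, the 6 probes give different values for the same line: control line 4 read 2.43% by Col1a1 probe 2 and 8.42% by Col1a1 probe 1. Array signal is not strictly proportional to RNA at its ends, so the percentages order lines per probe and are not shares of cells.

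**Figure D5:**
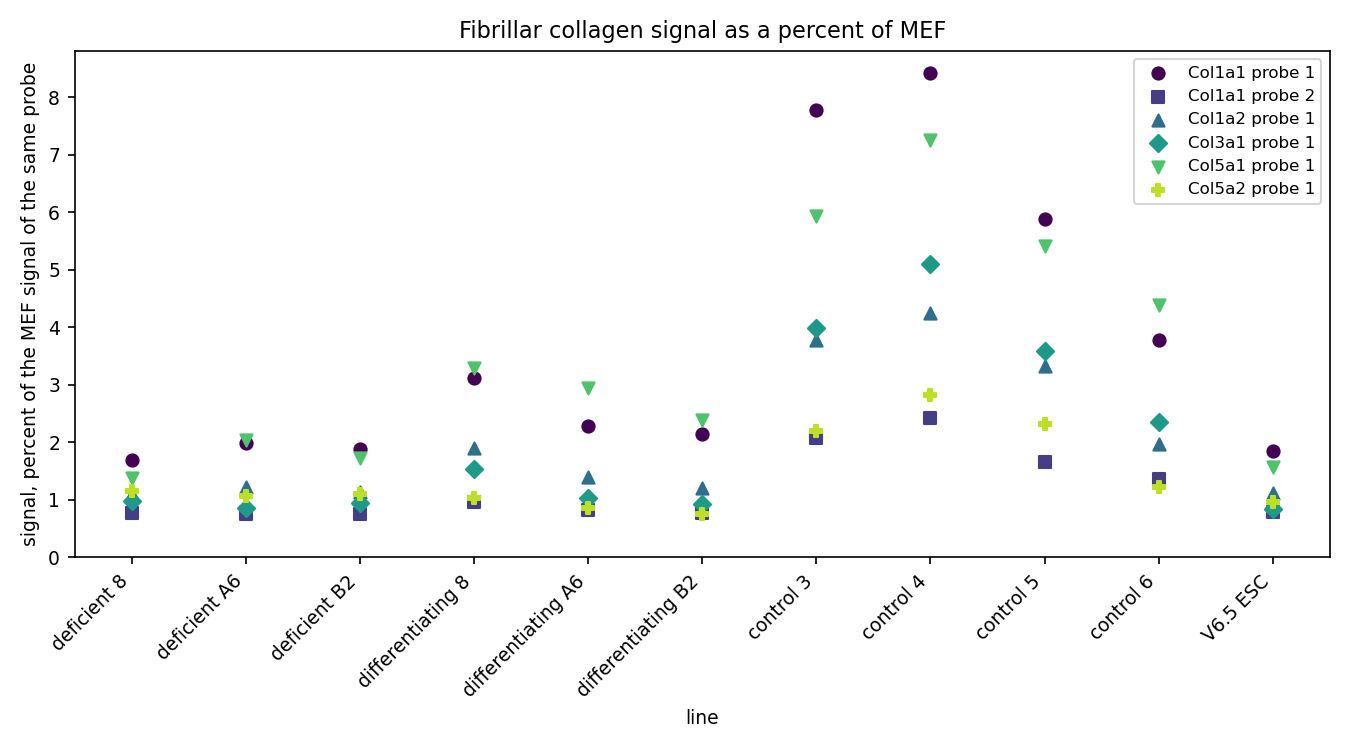
Signal of the 6 bright probes as a percent of the MEF signal of the same probe (y axis, linear) in each line. Deficient lines and V6.5 ESC lie between 0.743% and 2.03%, and control lines between 1.23% and 8.42%.

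Between deficient iPSC and V6.5 ESC, read on the same arrays, 0 of 11 probes were called by limma, beside 4.26% of all probes. None of the 11 had an unadjusted p under 0.05 in limma, beside 16.2% of all probes. The differences were -0.05 to 0.21. Col5a2 had the largest, 0.21 ± 0.30, and Col1a1 probe 1 differed by 0.08 ± 0.31. The SE of the 6 bright probes was 0.23 to 0.33. It pools all arrays, those of the control lines included, and is not a limit of detection. Differences larger than this SE could also go uncalled. Before dye adjustment, all 6 bright probes read higher in the deficient clone on each array shared with V6.5 ESC, by 0.03 to 0.57. Dyes were not swapped on these arrays, and with the dye term Col1a1 probe 2 differed by -0.01.

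Genes that work with these collagens were counted from lists chosen with earlier results known. In differentiating against control iPSC, 4.84% of all genes were called, 2.31% higher and 2.53% lower. Of 6 other fibrillar collagens, 11 measured procollagen processing and cross-linking genes and 10 collagen receptors, 0 were called in limma. At an unadjusted p under 0.05 in limma, 0 of the 6 collagens, 6 processing genes (all lower) and 3 receptors (all lower) passed. Of all probes, 21.0% passed at that threshold. Of 20 genes of collagen modification and folding, not all of them enzymes, 1 rose: P3h1, a prolyl hydroxylase of procollagen (0.70). Of 15 fibril-associated and microfibrillar collagens 2 fell, Col6a3 (-1.14) and Col12a1 (-0.31). Of 11 genes of collagen degradation, which include the inhibitors Timp1, Timp2 and Timp3, 1 fell: Fap, a fibroblast surface protease (-0.56). List medians were -0.04, -0.26, -0.16, 0.33, -0.31 and -0.56 in the order of these lists, where the median over all probes was -0.0003.

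Markers of other cell types were counted in the same way. Sparc and Pdgfra were in both the fibroblast and the endoderm list. Of 25 fibroblast markers, 5 fell in differentiating against control iPSC and 0 rose (median -0.43): Twist2, a mesenchymal transcription factor (-1.19), Fbn1, a microfibril protein (-1.09), and Mfap5, Fbln1 and Fn1 (-0.44 to -0.39). Of 8 contractile markers of smooth muscle type, 4 fell, Cnn1 (-1.79), Tagln (-1.35), Tpm2 (-1.01) and Myl9 (-0.98), and Des rose by 0.26. Their summed signal was 2.75% to 4.4% of the MEF sum in deficient, 3.43% to 3.86% in differentiating and 5.33% to 10.2% in control iPSC, and 2.44% in V6.5 ESC. Thy1 differed by -0.70 (limma adjusted p = 0.164), Dcn by -0.51 (limma adjusted p = 0.389) and Sparc by 0.95 (limma adjusted p = 0.132). Of 10 endoderm markers 5 rose, among them Cubn by 3.80, Foxa2 by 2.67, Gata6 by 2.61 and Lama1 by 2.44. Of 10 pluripotency markers 0 were called (Nanog -0.54, limma adjusted p = 0.225; Pou5f1 -0.12, limma adjusted p = 0.488), and of 8 mesoderm markers 0. At an unadjusted p under 0.05 in limma, 1 of each list was lower, while 21.0% of all probes passed in either direction. Of 8 osteoblast and chondrocyte markers Bglap rose by 0.72 and Spp1 fell by 0.67.

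The summed signal of the 25 fibroblast markers was 4.80% to 5.00% of the MEF sum in deficient, 5.95% to 8.63% in differentiating and 7.14% to 9.55% in control iPSC, and 4.67% in V6.5 ESC. Among control lines it was highest in line 4 and lowest in line 6, as were the bright collagen probes, and 24 of the 25 markers were higher in line 4 than in line 6. The fibroblast markers Dpt and Tcf21 were well above background in no deficient or V6.5 ESC channel, and Tcf21 in no MEF channel either. The sum includes Sparc and Pdgfra, which are also in the endoderm list. Sparc alone read 13.54 to 13.71 in deficient, 14.40 to 15.37 in differentiating and 13.54 to 14.51 in control iPSC. The part of fibroblast or contractile cell RNA in the collagen differences was not tested.

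In deficient against control iPSC, where 46.1% of genes were called, 15.2% higher and 30.9% lower, 15 of 25 fibroblast markers fell and 2 rose, and with V6.5 ESC arrays alone 18 fell and 2 rose, beside 26.5% of genes called lower and 15.9% higher in that fit. With V6.5 ESC arrays alone the falls include Dpt (-0.34) and the rises Tcf21 (0.11), which were well above background in no deficient channel. With those arrays Thy1 fell (-2.49), as did S100a4, a calcium-binding protein of mesenchymal cells (-2.38), and Dcn, a proteoglycan that binds collagen fibrils (-1.66). Of 11 processing and cross-linking genes, 5 fell and 1 rose with all arrays, and 8 fell and 0 rose with V6.5 ESC arrays alone. Adamts2, the procollagen N-proteinase, fell by 1.59 with V6.5 ESC arrays alone. Loxl1, a lysyl oxidase of cross-linking, rose by 0.32 with all arrays but fell by 0.63 with V6.5 ESC arrays alone. Of the 11 degradation genes, 7 fell and 1 rose with all arrays. With V6.5 ESC arrays alone 9 fell and 0 rose, among them Mmp14, a membrane collagenase, at -1.11. These 9 include the inhibitors Timp1 (-0.83) and Timp3 (-0.88), and the inhibitor Timp2 was not called (-0.28, limma adjusted p = 0.294). Of 10 pluripotency markers, 5 rose and 0 fell in both, Nanog by 1.05 and Pou5f1 by 0.28 with all arrays. Gata6 differed by 0.58 (limma adjusted p = 0.376) and Sparc by -0.49 (limma adjusted p = 0.12).

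Between states of the same clones, 9 of 10 endoderm markers rose, with all arrays and with V6.5 ESC arrays alone. Gata6, an endoderm transcription factor, rose by 1.78 with V6.5 ESC arrays alone and by 2.02 with all arrays. Of 25 fibroblast markers 13 rose and 2 fell with V6.5 ESC arrays alone, beside 26.8% of genes called higher and 18.7% lower, and 9 rose and 6 fell with all arrays, beside 52.9% of genes called, 33.3% higher and 19.6% lower. With V6.5 ESC arrays alone Thy1 rose by 1.72, Sparc, a collagen-binding matrix protein, by 1.27 and Dcn by 1.16. Sparc and Pdgfra (1.40) are counted among the rises of both the fibroblast and the endoderm list. The fibroblast rises also include Dpt (0.21), which was well above background in no deficient channel before differentiation. Of 20 modification and folding genes 6 rose and 3 fell with V6.5 ESC arrays alone, and 7 rose and 4 fell with all arrays. In the first count Serpinh1, the collagen chaperone, rose by 1.27, and P4ha2 and P4ha1, which hydroxylate prolines of procollagen, by 1.15 and 1.11. Of 10 pluripotency markers 5 fell with V6.5 ESC arrays alone and 7 with all arrays, among them Nanog, which fell by 1.62 with V6.5 ESC arrays alone.

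Against MEF, where 58.2% of genes were called, 28.2% higher and 30% lower, 24 of 25 fibroblast markers and 8 of 8 contractile markers fell in deficient iPSC, leaving out Tcf21, which was not well above background in either, and 9 of 10 pluripotency markers rose. Of 20 modification and folding genes 18 fell and 1 rose. Serpinh1 fell by 4.86, and Itga11, a collagen-binding integrin, fell by 5.76.

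The genes whose values ran most like the mean of the 11 collagen probes, each centred, over the 10 iPSC line values (all arrays) were Dbn1 (r = 0.990), Plekhg2 (0.982), Lmod1 (0.978), Pdgfrb (0.973), Lad1 (0.971) and Prss23 (0.971), among 3495 genes with a range of at least 1 log2 unit. These points share arrays, dyes and lines, and r is given as a description. Over the 7 differentiating and control values alone the 6 highest were Tpm2 (0.997), Gsto1 (0.997), Capg (0.996), Wls (0.993), Lox (0.992) and Dbn1 (0.992), with 1 gene shared between the lists. With deficient values from V6.5 ESC arrays alone, the 6 highest over 10 values were Wls (0.995), Dbn1 (0.994), Synpo2l (0.993), Pgap4 (0.990), Tmem119 (0.988) and Lmod1 (0.985), of which 2 were in the first list.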

How the data were processed

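The members and gene lists were chosen with earlier results of these data known. RNA of 36 channels on 18 arrays was read. Per the file headers, the files hold scanner output: a mean intensity for each spot and dye with its local background, not normalized, and processed intensities used as an alternative. The deposited value table holds log2 ratios, 1 for each array at each probe. Scale and direction are not stated there, and set against the scanner values all 18 columns ran as deficient or differentiating over its partner (correlations of 0.641 to 0.999, column medians -0.012 to 0.010). The submitters' processing notes name limma without a version.

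Starting from the mean intensities, limma 3.58.1 (R 4.3.3) was used for normexp background correction (offset 50), loess within arrays and Aquantile between arrays, which hides a shift of most genes at once. Kept probes had the scanner's flag for signal well above background in a share of at least 0.5 of channels in 1 kind of RNA or more. A separate-channel fit (12 line terms, dye term, intraspot correlation 0.767) gave 1 log2 value per line. Lines were compared with limma, by two-sided tests adjusted over all probes (Benjamini-Hochberg). Contrasts with MEF and V6.5 ESC came from the log ratios of the 18 arrays with a dye term, so their SE pools all arrays, which reuse lines. A gene in a list was its brightest probe, and up to 4 called genes with the largest change were named per list and comparison. Fn1, Des, Fbln5, Postn, Thbs2, Acta2, Loxl1, Vim and Lum were named after their values were seen. For differentiating and control channels, replicate numbers 1 to 3 mark the slide that a clone shared with the 4 control lines. For deficient clones they mark the partner RNA, MEF or V6.5 ESC. Clone and control channels of a slide deviated together (correlations 0.72, 0.76 and 0.60 over probes). These channels are the dyes of the same arrays and share spots, so the correlations do not test whether the numbers pair samples. No member spot was saturated or marked as an outlier. Precision is set by how many arrays and lines there are. Alternatives were other background and scale settings, no filter, the replicate block, the deposited table, lines left out and, chosen after seeing the data, lines without the MEF or V6.5 ESC arrays.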

Additional observations from a re-analysis of the deposited data

How the results depend on the processing

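In deficient against control iPSC, 5 of 11 collagen probes were called. Without normalization between arrays it was 9 (6 higher, 3 lower), as the median of all probes moved to 0.48, against -0.03. In that fit 82.2% of all probes had an unadjusted p under 0.05 in limma, against 53.8% in the main fit. Relative to that median, Col1a1 probe 1 was at -2.20, Col5a1 probe 1 at -1.54 and Col3a1 probe 1 at -1.30. Col1a2 probe 1 was at -0.95 and Col5a2 at -0.24, but Col1a1 probe 2 was at 0.43. The dim probes Col1a1 probe 3, Col3a1 probe 3 and Col1a2 probe 2 were at -0.08, -0.31 and 0.13 relative to it. With that median left in, Col1a1 probe 3 turned to 0.40, Col1a2 probe 2 to 0.61, Col3a1 probe 3 to 0.17, Col11a2 to 0.19, Col27a1 to 0.050, Adamts3 to 0.15, Loxl3 to 0.25, Ddr2 to 0.20, Runx2 to 0.41, Comp to 0.34, Gata4 to 0.23 and Msgn1 to 0.16. With the V6.5 ESC arrays alone the count was 8 and Col1a1 probe 2 turned to -1.29. Leaving out 1 line gave 5 to 7, while 46.1% (without deficient A6) to 60.7% (without control line 6) of all probes had an unadjusted p under 0.05 in limma. In differentiating against control iPSC, 3 probes were called, 6 with the replicate block, 7 from array log ratios with a dye term, 8 from the deposited table and 0 to 6 without 1 line, and all 6 bright probes stayed below 0 in 15 of 15 alternatives. All-probe counts were 1719, 7281 with the block, 11805 from array log ratios and 12915 from the deposited table. Between states of a clone, leaving out 1 clone gave 1 to 8 calls. Of all probes, 41.5% (without clone A6) to 64.3% (without clone 8) then had an unadjusted p under 0.05 in limma. With no scaling between arrays the median over probes was -0.49, and Col1a1 probe 3 turned to -0.52, Col1a2 probe 2 to -0.59, Col3a1 probe 3 to -0.19, Col11a2 to -0.21, Col27a1 to -0.0018, Adamts2 to -0.029, Adamts3 to -0.13, Mmp1a to -0.23, Ctsk to -0.32, Comp to -0.27 and Msgn1 to -0.16. Relative to that median of -0.49, Col1a1 probe 3 was at -0.03, Col1a2 probe 2 at -0.11 and Col3a1 probe 3 at 0.29. With the V6.5 ESC arrays alone Col1a1 probe 2 turned to 0.16 and Mmp2 to 0.073. The median percent of MEF over bright probes was 2.40 in deficient, 1.98 in differentiating and 4.81 in control lines with all arrays. It was 2.78 in deficient lines without normalization between arrays, and 1.13 in deficient, 1.33 in differentiating and 3.54 in control lines with each reference RNA's arrays kept apart. The likeness lists shared 1 gene. Deficient against V6.5 ESC gave 1576 calls over all probes, 4802 with processed signals and 5193 from the deposited table. The cause of these changes was not tested. Dim probes, near background, limit what can be seen for them.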
